A study of Mus musculus with 16 samples.

Results

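The miR-99 and miR-100 family was followed through 16 small RNA libraries of C2C12, mouse myoblasts in culture that form myotubes in low-serum medium. Its members were chosen by name: miR-99a-5p, miR-99a-3p, miR-99b-5p, miR-99b-3p, miR-100-5p and miR-100-3p, which are 6 of 2274 miRNA names in the tables and took 2205976 of 38541236 reads (5.72%). The groups were Control GM, Control DM3, tKO GM and tKO DM3, with 4 libraries in each. Control cells carry the label wild-type, and tKO cells carry deletions of 3 muscle miRNA genes, those of miR-1a-1, miR-1a-2 and miR-206. GM is growth medium and DM3 is 3 days of differentiation in low serum. Each genotype was represented by 2 lines (Control populations 1 and 2, tKO clones 1 and 2) with 2 replicates of each line. All groups were grown from cells that the growth protocol calls C2C12 PAX7 NEG, without saying what the term means, and each tKO line is a single clone. The labels do not say how far the 2 replicates of a line were separate cultures, so the p-values measure the spread between these libraries.

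A miRNA hairpin yields a 5p and a 3p strand, of which the one loaded into an Argonaute protein represses messenger RNAs that pair with its seed, bases 2 to 8. The 3 family hairpins lie in copies of an old cluster in which a miR-99 or miR-100 gene, a let-7 gene and a miR-125 gene sit on one strand. The 5p strands are the functional products known best, and they are known to repress Mtor and the insulin-like growth factor receptor Igf1r, both of which act in muscle growth.

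The mature sequences are shown because the members are told apart by few bases; they are written 5′ to 3′ with the seed in capitals, and all 6 matched RefSeq entries by name. In RefSeq the 5p members share the seed ACCCGUA, which no other of the 1679 mature mouse names has, miR-99a-3p and miR-99b-3p share AAGCUCG, and miR-100-3p has CAAGCUU.
miR-99a-5p: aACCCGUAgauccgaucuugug
miR-100-5p: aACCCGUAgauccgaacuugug
miR-99b-5p: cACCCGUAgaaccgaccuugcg
miR-99a-3p: cAAGCUCGuuucuaugggucu
miR-99b-3p: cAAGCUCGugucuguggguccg
miR-100-3p: aCAAGCUUgugucuauagguau
Counted from the first base, miR-99a-5p and miR-100-5p differ by the single substitution U16A, and a read of either that ends before position 16 could not be told apart. From miR-99a-5p to miR-99b-5p the substitutions are A1C, U11A, U16C and U21C. From miR-99a-3p to miR-99b-3p they are U10G, A14G and U21C over 21 compared bases.

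All 3 hairpins are single-copy genes on the plus strand of GRCm38. The miR-99a strands lie at chr16:77598940-77598961 (5p) and chr16:77598977-77598997 (3p), in an intron of the non-coding host gene Mir99ahg and opposite an intron of Gm11146 (GENCODE M21). The miR-99b strands lie at chr17:17830194-17830215 and chr17:17830232-17830253, in an intron of the protein-coding gene Spaca6. The miR-100 strands lie at chr9:41531437-41531458 and chr9:41531471-41531492, in introns of the non-coding genes 3110039I08Rik and Gm49317 and opposite an exon of the lincRNA Gm48742.

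The libraries held 112792 to 6543570 reads, and the replicate 2 libraries were in general the deeper ones (926448 to 6543570 against 112792 to 1897820). The smallest, tKO DM3 clone 1 replicate 1, stood apart: sequences under 18 nt made up 18.9% of its reads and miR-6240 with miR-6236 35.4%, against 1.88 to 12.8% and 0.555 to 17.1% in the other 15. Short reads were commoner in DM3 (4.76 to 12.8% in Control, 2.96 to 18.9% in tKO) than in Control GM (1.88 to 2.95%), with 2.00 to 6.50% in tKO GM. The deleted miR-206-3p stood at 882 to 1784 CPM in Control GM and 14078 to 60540 in Control DM3, against at most 18.2 in tKO GM and 53.5 in tKO DM3 (CPM are counts relative to the library total, scaled by TMM throughout). The summed level of 6 skeletal muscle miRNAs, which include the deleted miR-206-3p and miR-1a-3p, was 952 to 1853 CPM in GM and 16309 to 62890 in DM3 for Control, and 57.8 to 87.6 and 132 to 1020 for tKO. On average miR-206-3p alone held 32256 of the 34242 CPM in Control DM3, so the sums largely restate the deletion. Of the markers not deleted, miR-133a-3p averaged 1387 CPM in Control DM3 and 316 in tKO DM3, and miR-486a-5p 44.0 in Control GM and 48.8 in tKO GM. Of 11 markers of other cell types, miR-124-3p and miR-142a-5p were at 0 in every library; leaving aside miR-143-3p (12825 to 63327 CPM) and miR-145a-5p (1176 to 4772 CPM), the other 9 summed to 5.69 to 92.6 CPM. Fits on sequences of 18 to 25 nt, which leave short reads out, are given below for the level changes of miR-99b-3p and miR-99b-5p in Control. They are not given for the levels of the other members or for the level changes in tKO. The part of short reads in the family's values was otherwise not tested, nor was that of the muscle programme.

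The family's reads were spread very unevenly over its members. miR-99b-5p took 66.0% of them and ranked 3 among all names by mean level (39361 CPM), miR-99a-5p took 15.3% (7513 CPM, rank 37), miR-100-5p 14.7% (7619 CPM, rank 35) and miR-99b-3p 4.01% (2258 CPM, rank 68). The 3p strands of the other 2 hairpins were close to the limit of detection, with 175 reads of miR-100-3p and 96 of miR-99a-3p in all 16 libraries together. Reads named 5p thus outnumbered those named 3p by 3518 to 1 for miR-99a, 1847 to 1 for miR-100 and only 16.5 to 1 for miR-99b. Of the 96 reads named miR-99a-3p, 45.8% started before the 3p arm, so for reads of that arm itself the ratio was higher. Of the 6 members, 5 passed the filter on low counts and were tested; miR-99a-3p did not pass and is given by its counts.

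**Figure D1:**
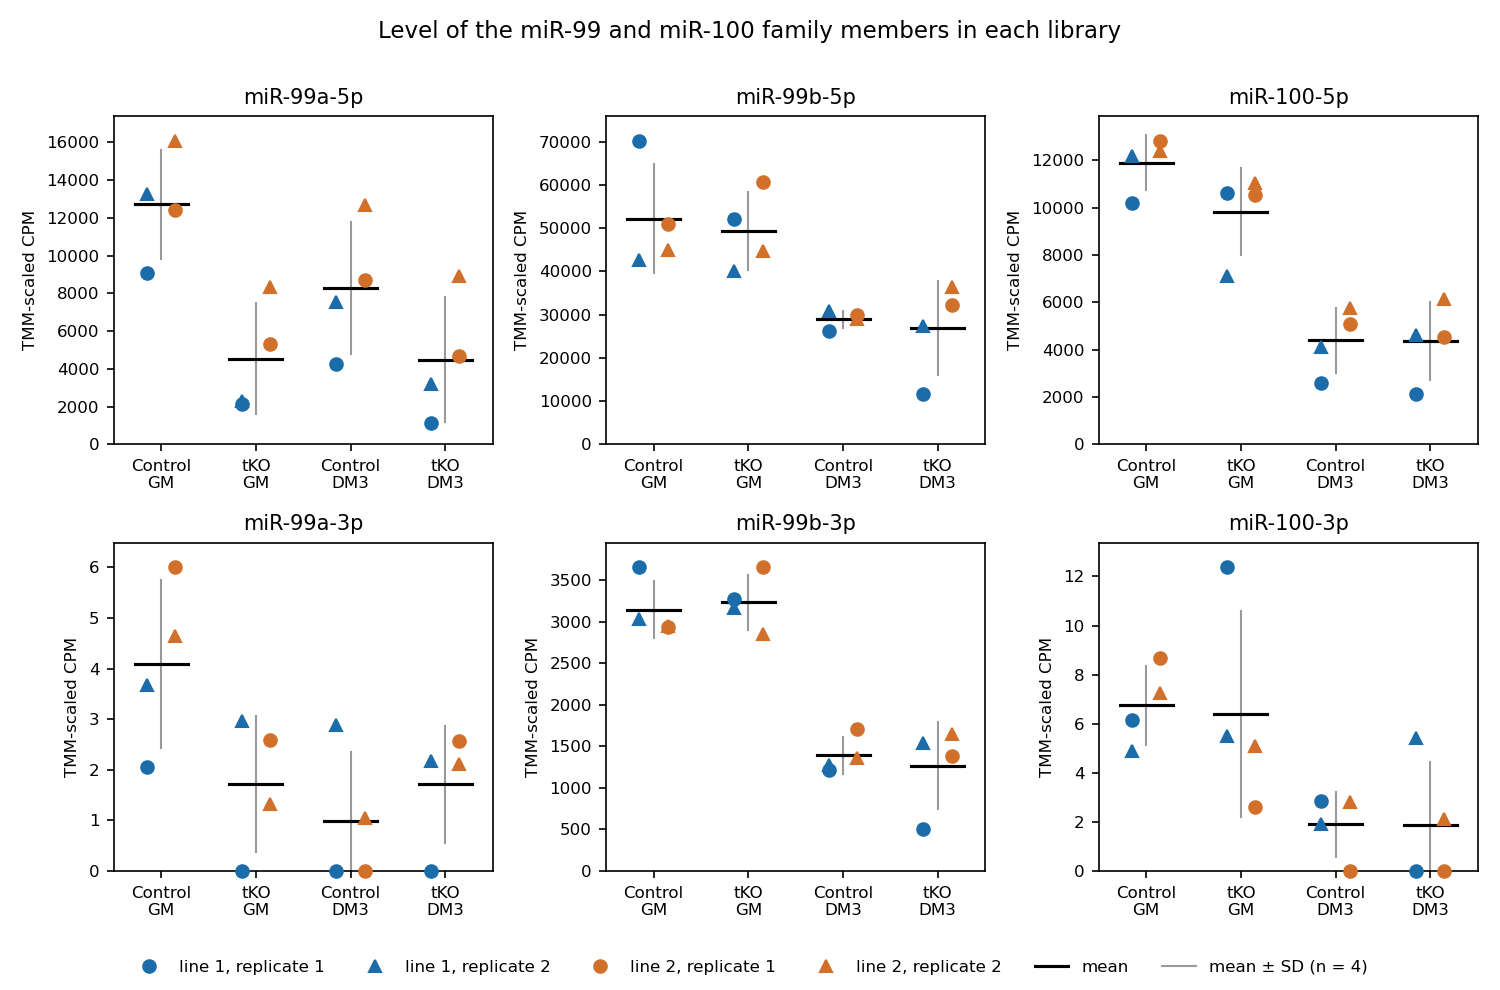
Level of each member (TMM-scaled CPM, linear axes from 0) in the 16 libraries, by group; colour gives the line, shape the replicate, the black bar the mean and the grey line 1 SD (n = 4). miR-99b-5p, miR-100-5p and miR-99b-3p were lower in all DM3 libraries than in all GM libraries of the same genotype, while the clone 1 libraries had the lowest miR-99a-5p levels. The share of all names with such separation is not given.

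Differentiation was accompanied by lower levels of miR-100-5p, miR-99b-5p and miR-99b-3p in Control and in tKO cells alike. In the fit by group miR-99a-5p passed in neither genotype, and it passed in Control with line and replicate number together as blocks. In edgeR, 3 of the 5 tested members were called in Control (adjusted p under 0.05), against 27.6% of all 807 names called in either direction, and 3 of 5 in tKO, against 19.7%. No member was called higher in DM3. Where groups are said not to overlap, in levels, tails or starts, the share of all names without overlap is not given. Such ranges describe the members only. In bulk libraries fewer cells of a type and less RNA per cell cannot be told apart, and CPM are shares of the sequenced small RNA.

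miR-100-5p had the largest change among the abundant members in Control, while in tKO that of miR-99b-3p was larger. In Control GM it stood at 10177 and 12197 CPM in population 1 and 12828 and 12396 in population 2, and in Control DM3 at 2585 and 4131 and at 5102 and 5743. In tKO GM clone 1 had 10617 and 7093 CPM and clone 2 had 10548 and 11041, against 2139 and 4614, and 4555 and 6143, in tKO DM3. No DM3 library reached the lowest GM library of its genotype. The group means were 11899 ± 1178 (SD, n = 4) and 4390 ± 1374 CPM in Control, and 9825 ± 1835 and 4363 ± 1655 in tKO. miR-100-5p fell by 1.44 on the log2 scale in Control (SE 0.32, edgeR adjusted p = 0.0022) and by 1.17 in tKO (SE 0.32, adjusted p = 0.014). The Control call held with each of the 16 libraries left out in turn; the tKO call was lost without tKO DM3 clone 1 replicate 1 (adjusted p = 0.051), tKO GM clone 2 replicate 1 (0.075) or tKO GM clone 2 replicate 2 (0.065). Counting exact mature sequences alone reduced the Control change to -0.96 (adjusted p = 0.0028), and replicate 2 libraries alone gave -1.29 in Control (adjusted p = 0.088) and -0.71 in tKO (adjusted p = 0.41). The tKO call was also lost with the replicates of a line summed (-0.89, adjusted p = 0.25), without a filter on low counts (0.086) and with only the groups compared (0.051).

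miR-99b-3p, the only 3p strand of the family at a high level, was also lower in differentiated cells. Its Control GM libraries ranged from 2939 to 3654 CPM (median 2989) and its Control DM3 libraries from 1218 to 1708 (median 1317). In tKO the range was 2847 to 3653 CPM in GM and 501 to 1648 in DM3, so that the groups did not overlap in either genotype. miR-99b-3p fell by 1.18 on the log2 scale in Control (SE 0.31, edgeR adjusted p = 0.0076) and by 1.35 in tKO (SE 0.31, adjusted p = 0.0050). Both calls held with every single library left out. Without the lowest tKO value (501 CPM, in the smallest library) the tKO change was -1.08 (adjusted p = 0.011). With sequences of 18 to 25 nt the Control change was -0.76 (adjusted p = 0.020), and with the replicates of a line summed neither call held (adjusted p = 0.067 and 0.15). Neither held in the replicate 2 libraries alone (-1.17, adjusted p = 0.089 in Control, and -0.89, adjusted p = 0.25 in tKO), and replicate 1 alone kept the tKO call (-1.87, adjusted p = 0.022) and not the Control call (adjusted p = 0.094).

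miR-99b-5p, the most abundant member, moved in the same direction by a smaller amount. In Control GM it stood at 70248 and 42583 CPM in population 1 and 50993 and 44994 in population 2, and in Control DM3 at 26193 and 30772 and at 29836 and 29029. In tKO GM clone 1 had 52121 and 40083 CPM and clone 2 had 60628 and 44634, against 11675 and 27454, and 32142 and 36388, in tKO DM3. The DM3 libraries lay below the GM libraries of both genotypes. miR-99b-5p fell by 0.85 on the log2 scale in Control (SE 0.30, edgeR adjusted p = 0.039) and by 0.87 in tKO (SE 0.30, adjusted p = 0.046). These calls were close to the threshold: 13 of 16 single-library omissions ended the Control call and 14 of 16 the tKO call, and with total-count scaling the changes were -0.47 (adjusted p = 0.20) and -0.64 (adjusted p = 0.093). With exact mature sequences alone the Control change was -0.23 (adjusted p = 0.51), and with sequences of 18 to 25 nt it was -0.43 (adjusted p = 0.16).

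miR-99a-5p, which differs from miR-100-5p by 1 base, spread widely over the lines and replicates. In each line and medium, miR-99a-5p was higher in replicate 2 than in replicate 1. In Control it ranged from 9071 to 16100 CPM in GM (mean 12720 ± 2896, SD, n = 4) and from 4250 to 12706 in DM3 (8298 ± 3492), and the groups overlapped. Within population 1 both DM3 libraries (4250 and 7526 CPM) lay below both GM libraries (9071 and 13291), and within population 2 the DM3 libraries (8712 and 12706) overlapped the GM libraries (12416 and 16100). The change in Control was -0.62 on the log2 scale (SE 0.51, edgeR adjusted p = 0.41). In tKO the GM and DM3 means were 4546 ± 2931 and 4490 ± 3310 CPM, with adjusted p = 0.99. With line and replicate number together as blocks, the Control change was -0.69 and passed the test in edgeR (SE 0.23, adjusted p = 0.027).

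The sparse 3p strands did not pass the test or were not tested. miR-100-3p had 3 to 39 reads per library in Control GM and 0 to 8 in Control DM3, or 4.89 to 8.67 against 0 to 2.85 CPM, and the log2 change was -1.60 (SE 0.71, edgeR adjusted p = 0.10). In tKO it ranged from 2.60 to 12.4 CPM in GM and from 0 to 5.44 in DM3, a change of -1.07 (SE 0.64, adjusted p = 0.26). miR-99a-3p had 53 reads in the 4 Control GM libraries together, 18 in tKO GM, 6 in Control DM3 and 19 in tKO DM3, and was at 0 in 4 libraries. A count of 0 allows up to 3 counts, between 0.558 CPM in the deepest and 20.0 CPM in the shallowest library; such limits, and the binomial intervals given for shares of reads, cover counting error only.

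**Figure D2:**
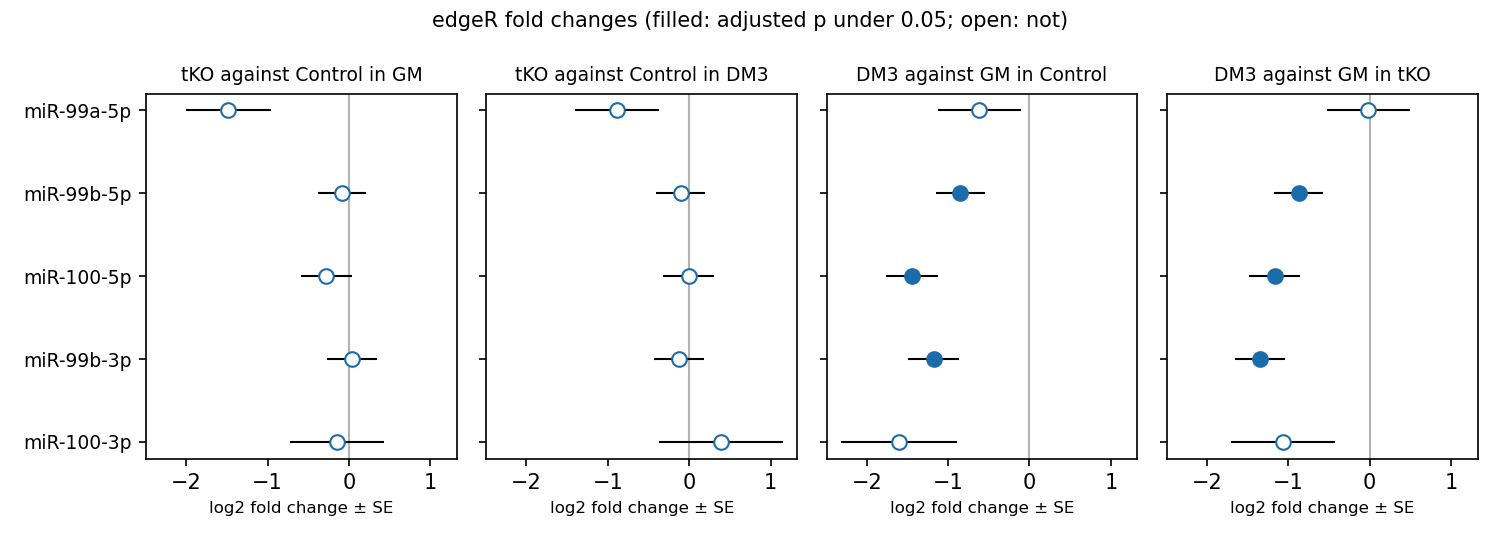
edgeR log2 fold changes (points) with their standard errors (lines) for the 5 tested members in 4 comparisons; filled points had an adjusted p under 0.05. The filled points are those of miR-99b-5p, miR-100-5p and miR-99b-3p for differentiation, in both genotypes.

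Loss of miR-206 and miR-1a was accompanied by no called change of a family member, which does not show that changes were absent. In simulated data for the GM comparison, edgeR called 16.1% of names changed by 1 on the log2 scale and 83.7% of those changed by 2. In edgeR 0 of 5 tested members passed in tKO against Control in GM, where 1.12% of all names were called, and 0 of 5 in DM3, where 0.867% were. The lowest unadjusted p was 0.010 in GM and 0.10 in DM3, both for miR-99a-5p. The difference of the differentiation effects between genotypes (interaction) was called for 0 of 5 members and for 0% of all names.

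miR-99a-5p came closest to a difference. All 4 Control GM libraries (9071, 13291, 12416 and 16100 CPM) lay above all 4 tKO GM libraries (2157 and 2327 in clone 1, 5345 and 8354 in clone 2). The log2 change was -1.48 (SE 0.52, edgeR adjusted p = 0.28); over the alternatives tried, single-library omissions aside, it lay between -1.57 and -1.31, and it passed only when exact mature sequences alone were counted (-1.36, adjusted p = 0.023). In DM3 the tKO libraries (1129 and 3179 in clone 1, 4708 and 8942 in clone 2) overlapped the Control libraries (4250 and 7526, 8712 and 12706), and the change was -0.88 (SE 0.51, adjusted p = 0.49). For the other 4 tested members the adjusted p lay between 0.96 and 0.99 in GM and between 0.88 and 0.99 in DM3.

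Within tKO the 2 clones differed in miR-99a-5p. A fit with a coefficient for each line, chosen after these values were seen, gave clone 2 a log2 level 1.63 above clone 1 (SE 0.35, edgeR adjusted p = 0.026), where 1.36% of all names were called; the other 4 tested members had adjusted p between 0.33 and 0.65. Between the 2 Control populations the difference was 0.61 (SE 0.35, adjusted p = 0.81), with 0% of names called, and whether the gap differed between genotypes was not tested. Clone 1 was lower than the 2 Control populations in GM by -2.49 (SE 0.48, adjusted p = 0.017; 1.24% of names called), and its DM3 value was -1.88 (SE 0.46, adjusted p = 0.070; 0.991%). Clone 2 had -0.88 in GM (SE 0.44, adjusted p = 0.89; 1.12%) and -0.22 in DM3 (SE 0.43, adjusted p = 0.81; 1.36%). With 2 replicates per line these calls depended on single libraries: with each library left out in turn the clone gap stayed between 1.37 and 2.15 but passed in 5 of 16 fits, the clone 1 change in GM stayed between -2.62 and -2.31 and passed in 11 of 16, and that in DM3 lay between -2.87 and -1.30 and passed in 1 of 16. Without tKO DM3 clone 1 replicate 2 the clone gaps of miR-99b-5p, miR-99b-3p and miR-100-5p were 0.91, 0.84 and 0.84. Without replicate 1 of that clone in DM3 they were 0.29, 0.04 and 0.28. In GM the miR-99a-5p levels of both clones lay below those of every Control library, but the clone 2 change was not called. How far the lower miR-99a-5p level goes with the genotype or with the clone was not tested.

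The 5p reads of the family were led by miR-99b-5p in every library. Taken as shares of the 3 5p members, miR-99a-5p, miR-99b-5p and miR-100-5p made up 17% (SD 5.1), 67.3 ± 7.8% and 15.7 ± 3.0% in Control GM (SD, n = 4 throughout). In tKO GM the shares were 7.01 ± 4.30%, 77.6 ± 5.3% and 15.4 ± 1.6%. In Control DM3 they were 19.3 ± 5.8%, 70.3 ± 7.6% and 10.3 ± 2.0%, and in tKO DM3 11.3 ± 4.3%, 76.1 ± 3.6% and 12.6 ± 1.4%. All of these ranges overlapped between the groups compared, and no test was run on them. In all, the 6 members took 6.93 ± 1.28% of reads in Control GM, 6.12 ± 0.64% in tKO GM, 4.83 ± 0.14% in Control DM3 and 3.98 ± 1.31% in tKO DM3.

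**Figure D3:**
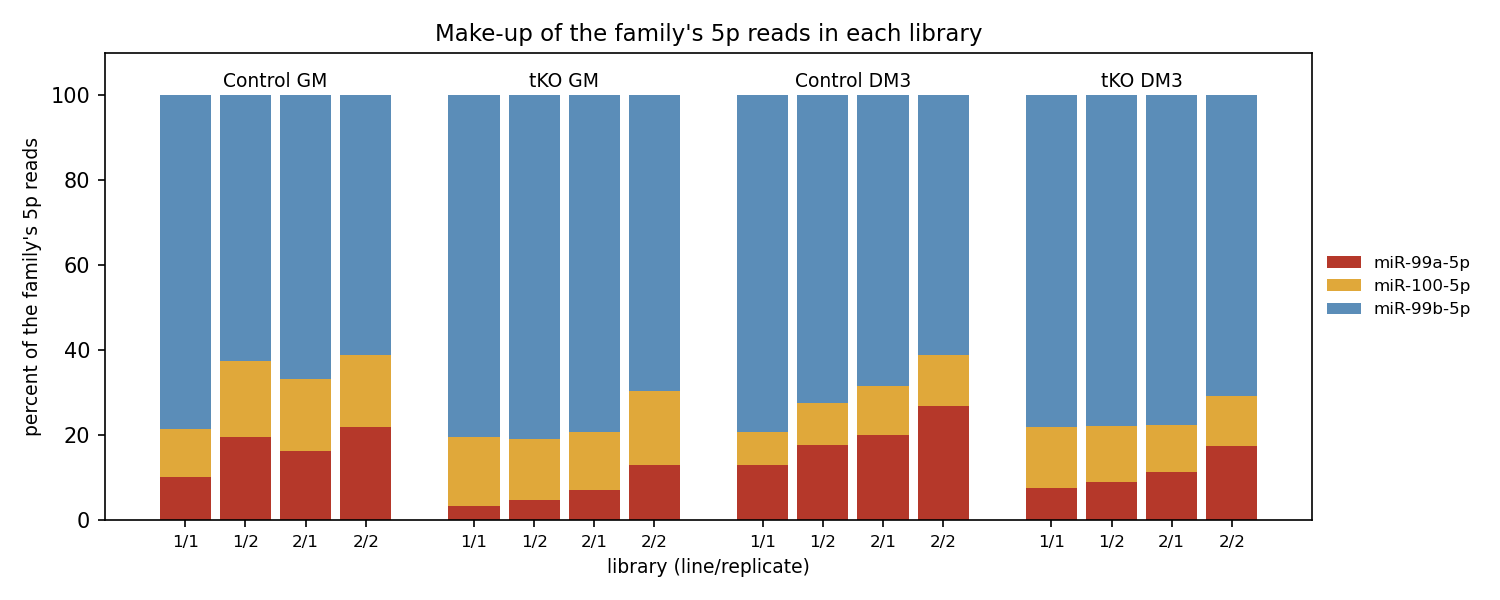
Share of miR-99a-5p, miR-100-5p and miR-99b-5p in the family's 5p reads (percent, stacked to 100) in each library, labelled line/replicate. miR-99b-5p held 61.1 to 81.0% in every library, and the miR-99a-5p share was lowest, at 3.32%, in a tKO GM clone 1 library.

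The balance of the 2 strands of a hairpin was compared as the log2 ratio of 5p to 3p reads over 180 hairpins (limma). The miR-99b 3p share of both strands was 5.80 ± 0.75% in Control GM and 4.58 ± 0.61% in Control DM3 (SD, n = 4), and the log2 ratio rose by 0.36 (SE 0.26, limma adjusted p = 0.34), which did not pass. In tKO the ratio changed by 0.51 (SE 0.26, adjusted p = 0.18). Neither of the 2 tested family hairpins, miR-99b and miR-100, was called in any comparison, where 19.4% (Control) and 14.4% (tKO) of hairpins were called for DM3 against GM, and 0.556% and 0% for tKO against Control in GM and DM3.

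Let-7 and miR-125 strands encoded beside the 3 hairpins were examined as a fixed list of 11 names. On GRCm38 the 5p strands of let-7c-1 and miR-125b-2 start 0.674 and 47.3 kb after miR-99a. Those of let-7e and miR-125a start 0.112 and 0.563 kb after miR-99b. After miR-100, the let-7a-2 3p strand starts at 5.28 kb and the miR-125b-1 5p strand at 50.4 kb. Of the list, 9 of 11 were called lower in Control DM3 than in Control GM and none higher, where 11.8% of all names were called lower, with a median log2 change of -1.29 over the list against 0.02 over all names. In tKO 4 of 11 were called lower (let-7e-3p, miR-125a-3p, miR-125b-1-3p and miR-125b-5p) and none higher, where 8.3% of all names were called lower, with medians of -1.08 and 0.01. For tKO against Control none was called by edgeR in GM (1.12% of all names) or in DM3 (0.867%).

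Several single-gene neighbours of miR-100 and miR-99b fell in both genotypes. miR-125b-1-3p, from the miR-100 cluster, went from 3749 ± 1140 to 522 ± 239 CPM in Control (SD, n = 4; -2.84, SE 0.44, edgeR adjusted p = 0.00011) and from 4050 ± 1715 to 590 ± 295 in tKO (-2.77, SE 0.44, adjusted p = 0.00036). miR-125a-3p, from the miR-99b cluster, went from 354 ± 28 to 123 ± 25 CPM in Control (-1.51, SE 0.33, adjusted p = 0.0022) and from 371 ± 28 to 128 ± 50 in tKO (-1.5, SE 0.33, adjusted p = 0.0035). let-7e-5p changed in Control (-1.76, SE 0.41, adjusted p = 0.0035) and had -1.08 in tKO (SE 0.41, adjusted p = 0.068). The names let-7c-5p and miR-125b-5p each match 2 genes in the reference, and let-7a-5p is also encoded by several genes, so their reads are not those of the family's clusters alone.

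In the miR-99a cluster the single-gene neighbours did not pass. let-7c-1-3p had 23.5 ± 6.8 CPM in Control GM and 9.07 ± 7.37 in Control DM3 (SD, n = 4). In tKO it had 12.2 ± 2.8 CPM in GM and 12.4 ± 7.5 in DM3. miR-125b-2-3p had 109 ± 17 CPM in Control GM and 93.3 ± 37.8 in Control DM3 (SD, n = 4; -0.22, SE 0.60, edgeR adjusted p = 0.83). Its tKO GM levels were 35.1 and 17.4 CPM in clone 1 and 74.6 and 79.2 in clone 2, and in tKO DM3 clone 1 had 0 and 43.5 CPM against 92.1 and 115 in clone 2. The 0 is from the smallest library, where 3 counts stand for 20.0 CPM. Clone 1 was thus the lower clone for miR-125b-2-3p in each medium, as it was for miR-99a-5p, but the gap between the clones did not pass (1.71, SE 0.50, edgeR adjusted p = 0.14). Such gaps were not particular to this cluster: miR-125a-5p, from the miR-99b cluster, had 0.74 (SE 0.23, adjusted p = 0.18). In the miR-100 cluster, miR-125b-1-3p (-0.22) and let-7a-2-3p (-0.12) went the other way. let-7c-1-3p, which lies nearest to miR-99a, had 8.25 and 12.3 CPM in clone 1 and 14.9 and 13.2 in clone 2 in GM, 6.68 and 19.8 in clone 1 and 5.12 and 17.8 in clone 2 in DM3, and a clone gap of 0.02 (SE 0.47, adjusted p = 0.99).

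Most members were recovered as a few 3′ variants with a fixed start. The leading sequences of miR-99a-5p and miR-100-5p are shown because their favoured 3′ ends differ; the listed sequence excludes any non-templated tail.
miR-99a-5p, 21 nt: aACCCGUAgauccgaucuugu
miR-99a-5p, 22 nt, mature: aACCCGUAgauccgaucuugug
miR-100-5p, 22 nt, mature: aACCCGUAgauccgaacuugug
miR-100-5p, 21 nt: aACCCGUAgauccgaacuugu
The 21-nt form led miR-99a-5p with 45.2% of its reads over all libraries, ahead of the mature 22-nt form (35.3%) and a 20-nt form (11.3%). miR-100-5p had the reverse order, with 56.2% mature, 23.3% of 21 nt and 10.4% of 20 nt. miR-99b-5p had 49.4%, 32.7% and 10.2% of the corresponding 22-, 21- and 20-nt forms. In every library the 21-nt share of miR-99a-5p lay at 36.1 to 50.2%, above that of miR-100-5p (21.3 to 28.1%). In Control the miR-99a-5p 21-nt form made up 41.5 ± 2.5% in GM and 48.5 ± 1.6% in DM3 (SD, n = 4), and the mature form 39.0 ± 2.3% and 33.0 ± 2.5%; these shares were not tested.

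miR-99b-3p varied more at its 3′ end. Its mature form made up 49.4 ± 2.6% of its reads in Control GM and 42.9 ± 5.7% in Control DM3 (SD, n = 4). A form 1 base longer, listed without a mismatch, is shown because its share was the higher one in DM3.
miR-99b-3p, 23 nt: cAAGCUCGugucuguggguccgu
This 23-nt form made up 11.7 ± 0.8% in Control GM and 20.6 ± 3.7% in Control DM3, and 9.35 ± 1.85% and 16.1 ± 4.4% in tKO. The 21-nt form went the other way, from 16.0 ± 0.9% to 11.4 ± 1.2% in Control and from 17.4 ± 0.5% to 11.3 ± 3.2% in tKO.

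Non-templated bases added after the 3′ end were frequent on every abundant member and became rarer on miR-99a-5p with differentiation. The share of tailed miR-99a-5p reads was 27.8 to 29.5% in the 4 Control GM libraries and 21.8 to 23.6% in the 4 Control DM3 libraries, and 24.6 to 31.1% in tKO GM against 21.9 to 23.6% in tKO DM3. Neither pair of groups overlapped. The log2 ratio of tailed to untailed miR-99a-5p reads fell by 0.45 in Control (SE 0.10, limma adjusted p = 0.0040) and by 0.33 in tKO (SE 0.10, adjusted p = 0.040). It was the single member called of 4 tested in either genotype, where 36.1% (Control) and 13% (tKO) of 238 names were called. The count in Control was thus not above the share over all names, and the tKO call depended on single libraries, as given below. No member was called for tKO against Control or for the interaction, where 0% of names were. The tailed share of all reads was 29.4 ± 2.0% in Control GM and 32.5 ± 3.3% in Control DM3.

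The bases added differed between the members. Tails of A were the commonest on miR-99a-5p, at 17.3 ± 0.8% of reads in Control GM and 13.3 ± 0.3% in Control DM3 (SD, n = 4). C tails made up 5.94 ± 0.48% and 6.74 ± 0.78% of miR-99a-5p reads in these groups, and 87.4% of the C-tailed reads carried the tail on the 20-nt form. G tails made up 3.83 and 3.13% of miR-99a-5p reads in Control GM population 1 and 0.698 and 0.603% in population 2. In Control DM3 they made up 0.583 to 0.729%. Over all reads the G-tailed share in Control GM was 3.84 and 2.97% in population 1 and 0.935 and 0.921% in population 2. On miR-99b-5p C tails made up at most 1.01% in any library, and T tails reached 9.84 ± 0.94% in Control GM and 10.2 ± 1.9% in Control DM3, 59.2% of them on its 20-nt form. miR-100-5p had 19.3 ± 1.0% tailed reads in Control GM and 16.0 ± 1.7% in Control DM3 without overlap; the log2 change was -0.33 (SE 0.13, limma adjusted p = 0.054) and passed without the smallest library (adjusted p = 0.020). miR-99b-3p was tailed most, in 42.4 ± 3.7% of its reads in Control GM and 46.1 ± 0.7% in Control DM3 (adjusted p = 0.32). The tKO call of miR-99a-5p was lost in 9 of 16 single-library omissions (-0.25 to -0.40), among them the smallest library (adjusted p = 0.084), and with a pseudocount of 5 (0.054). Counting A tails alone, 2 of 4 members were called in Control, miR-99a-5p and miR-100-5p, and 1 in tKO, miR-99a-5p, against 13% and 4.2% of all names. Counting T tails alone none was called in limma in either genotype, against 12.6% and 10.5% of all names.

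**Figure D4:**
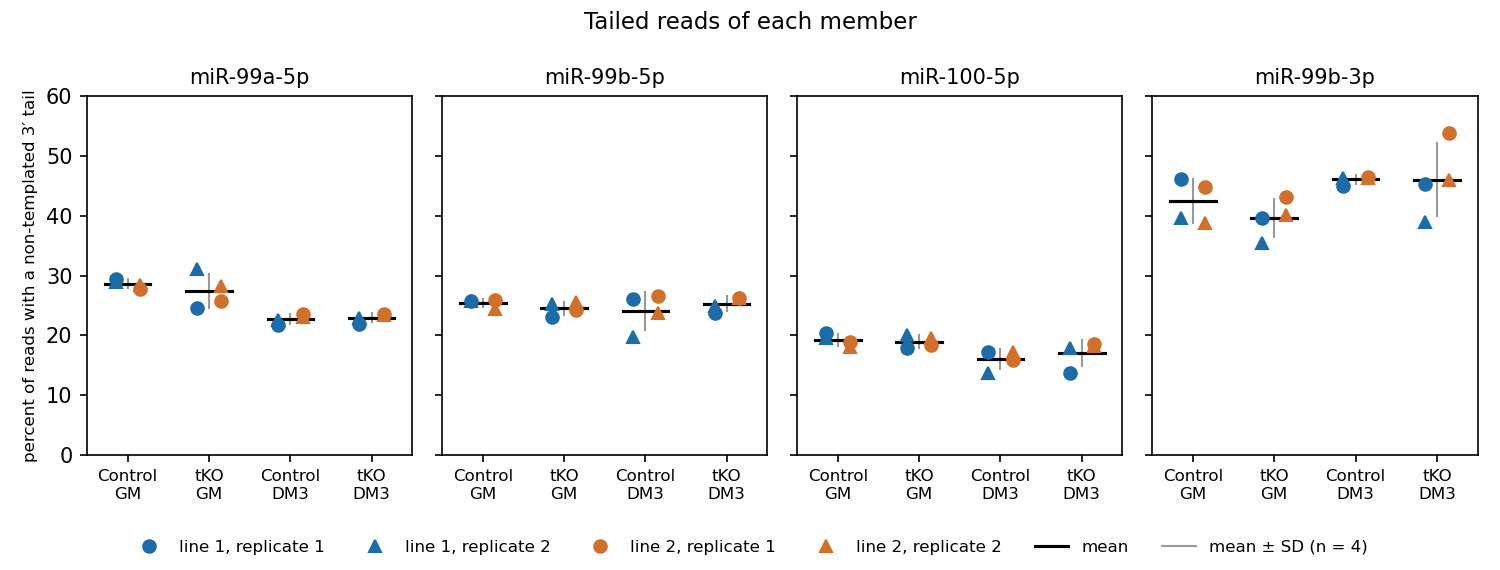
Percent of each member's reads that carry a non-templated 3′ tail in each library, by group; symbols as in the plot of levels. The miR-99a-5p points lie at 24.6 to 31.1% in GM and at 21.8 to 23.6% in DM3.

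A shifted 5′ start changes the seed, so reads that do not begin at the annotated first base were compared for 192 names. miR-99b-3p gained such reads with differentiation: 0.954 ± 0.141% in Control GM against 1.85 ± 0.40% in Control DM3, and 1.20 ± 0.19% in tKO GM against 2.61 ± 0.93% in tKO DM3 (SD, n = 4), without overlap in either genotype. The log2 ratio of annotated to other starts fell by 0.98 in Control (SE 0.27, limma adjusted p = 0.019) and by 1.1 in tKO (SE 0.27, adjusted p = 0.011). As the names were listed, 2 of 4 tested members were called in Control (19.3% of names) and 1 of 4 in tKO (13.5%); none was for tKO against Control or the interaction (0%). Most shifted reads started 1 base later, at 0.786 ± 0.097% in Control GM and 1.60 ± 0.38% in Control DM3, and their commonest form is shown with its bases 2 to 8 in capitals.
miR-99b-3p, 1 base later: aAGCUCGUgucuguggguccg
The Control call was lost without Control GM population 1 replicate 1 (adjusted p = 0.056) or Control DM3 population 1 replicate 1 (0.055), and with a pseudocount of 5 (0.062). The smallest library held only 75 miR-99b-3p reads; without it the tKO change was -0.87 (adjusted p = 0.016).

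For miR-100-5p the start result depended on how shared sequences were named. As listed, its share of other starts was 1.49 ± 0.24% in Control GM and 3.44 ± 1.30% in Control DM3 (SD, n = 4), and the log2 ratio changed by -1.16 (SE 0.31, limma adjusted p = 0.018), a call that was lost without Control GM population 2 replicate 1 (0.053) or Control DM3 population 2 replicate 1 (0.051). The following sequence, with the added first base in capitals, is shown because it made up 496 of the 564 miR-100-5p reads whose name differed between libraries.
miR-99a-5p with 1 added base: Aaacccguagauccgaucuugu
This 22-nt sequence lies in the Mir99a hairpin and not in the Mir100 hairpin. It was listed as miR-99a-5p without a mismatch in 7 libraries (2469 reads) and as miR-100-5p with the mismatch A17U, counted from its own first base, in the other 9 (496 reads), and under both names in none. When every sequence was given 1 name, that without a mismatch, in all libraries, the miR-100-5p shares became 1.26 ± 0.23% and 1.47 ± 0.15%, and the change was -0.25 (SE 0.20, adjusted p = 0.42), while that of miR-99b-3p stayed at -0.98 (adjusted p = 0.019) and -1.1 (adjusted p = 0.0083). Under this naming, chosen after the listings were seen, 20.7% of 193 names were called in Control and 16.6% in tKO. The extended sequence made up 0.830 ± 0.085% of miR-99a-5p reads in Control GM, 0.961 ± 0.258% in tKO GM, 1.34 ± 0.32% in Control DM3 and 1.25 ± 0.35% in tKO DM3; with it, the starts of miR-99a-5p other than the annotated one made up at most 1.37% in Control GM and 1.42 to 2.21% in Control DM3, and the log2 ratio of annotated to other starts changed by -0.52 (SE 0.24, adjusted p = 0.13). Only 564 reads changed name in the family, and its levels moved little: miR-100-5p fell by 1.52 instead of 1.44 in Control.

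**Figure D5:**
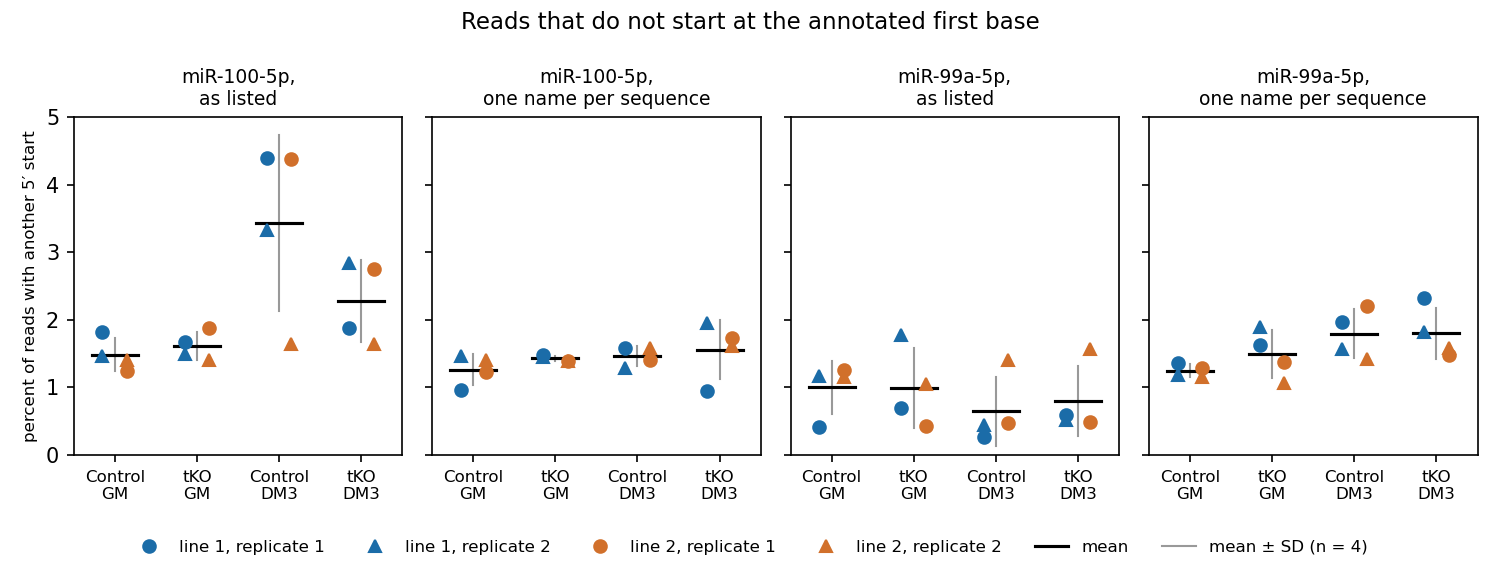
Percent of miR-100-5p and miR-99a-5p reads that do not start at the annotated first base, by group, with sequences named as listed and with 1 name per sequence; symbols as in the plot of levels. The Control DM3 mean of miR-100-5p goes from 3.44% as listed to 1.47% with 1 name per sequence.

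Many reads of the sparse 3p strands did not start at the annotated base. Of 175 miR-100-3p reads, 54.3% started 1 base after the annotated start (Wilson 95% interval 46.9 to 61.5%) and 29.7% at it (23.4 to 36.9%), all libraries pooled. The order was the same in Control GM, tKO GM and tKO DM3, but among the 11 reads of Control DM3 27.3% started 1 base later and 45.5% at the annotated base. The commonest miR-100-3p sequence is shown with its own bases 2 to 8 in capitals, which no mature mouse name in RefSeq has as its seed.
miR-100-3p, 1 base later: cAAGCUUGugucuauagguaug
Of the 96 miR-99a-3p reads none had the exact mature sequence. Starts within 2 bases of the annotated one made up 50.0% (40.2 to 59.8%), and 45.8% (36.2 to 55.8%) started before the 3p arm, most often as a 15-nt piece of the loop with 28 reads.
miR-99a loop piece: gugaaguggaccgcg
The remaining 4.17% started further inside the 3p arm. Over all these start classes, 16.7% of the miR-99a-3p reads (10.5 to 25.4%) were listed with the mismatch U10G, which is the base of miR-99b-3p at that position, so their origin is uncertain.

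A small part of the miR-99b-5p reads ran on through the loop. Reads of 30 nt or more made up 0.177 ± 0.040% of miR-99b-5p reads in Control GM and 0.140 ± 0.033% in Control DM3 (SD, n = 4), with 1100 and 172 reads. The commonest is shown with the bases past the mature 3′ end in capitals; in the genome 16 bases separate the 2 strands, so it ends at the last base before the 3p strand.
miR-99b-5p with loop, 38 nt: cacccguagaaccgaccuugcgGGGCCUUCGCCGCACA
This sequence held 43.9% of the long miR-99b-5p reads. For miR-99a-5p and miR-100-5p such reads were rare, with 7 and 23 in the Control GM libraries together.

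Among single-base mismatches, A1G stood out on the members that begin with A. It was listed on 1.19% of miR-99a-5p reads (0.983 to 1.82% by library) and 1.38% of miR-100-5p reads (up to 2.55%), where the median listed mismatch was at 0.057% and 0.053%. miR-99b-5p begins with C, and its commonest mismatch was A10G at 0.349%. The group means of A1G on miR-100-5p were 1.42 ± 0.08% in Control GM, 1.42 ± 0.32% in tKO GM, 1.56 ± 0.31% in Control DM3 and 1.73 ± 0.60% in tKO DM3 (SD, n = 4).

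Across the 16 libraries the members fell into 2 patterns. The log2 levels of miR-99b-5p, miR-99b-3p and miR-100-5p correlated with each other at Pearson r of 0.878 to 0.953, and miR-99a-5p with these at 0.408 to 0.544, as descriptions over libraries that share lines and media. By the same measure over 229 names, those most like miR-99b-5p were miR-671-3p (r = 0.969), miR-1964-3p (0.944) and miR-106b-3p (0.923). Those most like miR-100-5p were miR-106b-3p (0.965), miR-25-3p (0.964) and miR-221-3p (0.944), and those most like miR-99a-5p were miR-218-5p (0.906), miR-181b-5p (0.894) and miR-34b-3p (0.878). For miR-99b-3p they were miR-671-3p (0.973), miR-27a-5p (0.944) and miR-222-3p (0.939). Without the smallest library the r values of these nearest names were 0.809 to 0.952, and those between members are not given.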

How the data were processed

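The deposited tables, 1 per library, list sequences with the miRNA they were assigned to and their expected counts, made with unitas per the file names, in which 0.625% of rows hold a fraction of a read; further deposited columns hold the expected counts of tailed reads, which the listed sequence leaves out. The submitters' processing notes name cutadapt 1.15, STAR 2.5.4 and the build mm10 without their roles. Text in parentheses was removed from the names, and 236 names lacking an exact mature entry were folded into the matching name. Expected counts were summed per name, rounded, filtered with filterByExpr (minimum count 10; 807 names), scaled by TMM and tested with edgeR 4.0.16 robust quasi-likelihood F tests in R 4.3.3 over all 16 libraries, 1 coefficient per group, with Benjamini-Hochberg adjustment over all names. limma 3.58.1 was used on log2 ratios per library (pseudocount 0.5) for strands, tails and 5′ starts; names needed 50 reads in 12 libraries for the last 2. The scripts were tested on simulated data. Likeness was the Pearson r of log2(CPM + 1) among names of at least 100 CPM on average. DESeq2 1.42.0 was an alternative. All 6 members are named; the members, the neighbour and marker lists and the tests were chosen with earlier results of these data known. The fits by line, the split by tail base and the single naming of shared sequences were chosen after the values were seen. Reads carry no molecular identifiers.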

Additional observations from a re-analysis of the deposited data

Results flagged for a closer look

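In groups of 4 libraries, a value was singled out when its gap to the nearest other library exceeded Dixon's 95% limit for the group's range, which chance does for about 1 group in 20; 10 values were singled out in 68 groups of member values. In tKO GM, clone 1 replicate 2 had the lowest miR-100-5p level, 7093 CPM against 10548 CPM in the next library. In Control GM, population 1 replicate 1 had the highest miR-99b-3p level, 3654 CPM against 3030, and the lowest miR-100-5p share of the 5p reads, 11.4% (Wilson 95% interval 11.1 to 11.7%) against 16.8%. The miR-99b-5p share of the 5p reads was lowest in clone 2 replicate 2 in both media, at 69.7% (69.6 to 69.9%) against 79.2% in tKO GM and 70.7% (70.5 to 70.9%) against 77.6% in tKO DM3.

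Among tailed shares, miR-100-5p was lowest in tKO DM3 clone 1 replicate 1, at 13.75% of 320 reads (10.4 to 18%) against 17.8%. miR-99b-3p was lowest in Control DM3 population 1 replicate 1, at 45.1% of 428 reads (40.4 to 49.8%) against 46.4%, and miR-99b-5p in Control GM population 2 replicate 2, at 24.3% (24.2 to 24.5%) against 25.7%. Among other 5′ starts, miR-99b-3p was highest in tKO DM3 clone 1 replicate 1, at 4% of 75 reads (1.37 to 11.1%) against 2.22%, and miR-99b-5p in tKO GM clone 1 replicate 1, at 1.02% (0.939 to 1.11%) against 0.880%.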

How the results depend on the processing

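No called change of a member reversed its sign under an alternative; changes near 0 that were not called, such as that of miR-99a-5p in tKO, were not all followed. For tKO against Control in GM, the count of called members went from 0 to 1 (miR-99a-5p) with exact mature sequences only; for DM3 and the interaction it stayed at 0. For DM3 against GM in Control, the 3 calls became 1 with the replicates of a line summed, 1 with replicate 1 alone and 0 with replicate 2 alone, 4 with line and replicate as blocks (miR-99a-5p added), and 2 to 3 with a library left out. In tKO they became 1 without a filter on low counts, 0 with summed replicates, 0 with replicate 2 alone, 1 with only the groups compared, and 1 to 3 with a library left out; the 3 libraries that left 1 call are those named with miR-100-5p. The cause of these losses was not tested; the summed and single-replicate fits hold fewer libraries. Total-count scaling moved the median change of all names in DM3 against GM from 0.02 to 0.39 in Control and from 0.01 to 0.24 in tKO, and the 3 members stayed lower.

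For tailed reads in Control the 1 call became 2 with a pseudocount of 5, with sequences of 18 to 25 nt, with a higher read minimum or with A tails only, 0 with T tails only, and 1 to 2 with a library left out (2 without Control DM3 population 1 replicate 1 or tKO DM3 clone 1 replicate 1); in tKO it became 0 with a pseudocount of 5 or T tails only, and 0 to 1 with a library left out. For 5′ starts in Control the 2 calls became 1 with a pseudocount of 5 or with 1 name per sequence, and 1 to 2 with a library left out. The strand ratio stayed at 0 calls. Of the composition, exact mature sequences moved miR-99a-5p in Control DM3 to 13.2% and miR-100-5p in tKO GM to 18.1%.

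Same-numbered replicates did not deviate together in every pair (mean correlations 0.211, 0.104, 0.127 and 0.00767 in the 4 comparisons, lowest -0.46). Pairs of different number had means of -0.203, -0.104, -0.129 and 0.0134, so the replicate number went with some shared deviation. The main fits did not use the numbers as a pairing, and fits with them as a block are given as alternatives. With the replicate number as a block miR-100-5p changed by -1.45 in Control and -1.21 in tKO, and only the miR-99b-5p call in tKO was lost (-0.86, adjusted p = 0.053). Depth limits the sparse 3p strands: the smallest library held 169 reads of miR-99a-5p.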
